A study of Rattus norvegicus with 20 samples.

Results

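The 10 genes described here are a set of fat cell genes, measured in 20 preparations of rat pancreatic islets. They comprise 7 genes used by fat cells of any depot (Adipoq, Plin1, Cidec, Gpd1, Lpl, Fabp4 and Pparg) and 3 genes tied to brown fat (Ucp1, Dio2 and Elovl3). Each was represented by its probe set, the group of array probes summarised into 1 value, among 15310 probe sets that carried exactly 1 gene symbol and 29214 in all. All 10 had 1 such probe set, out of 14506 genes with one. The members were chosen by symbol, with Ucp1, Adipoq, Gpd1 and Cidec already known to read high in single arrays. Their log2 values in those arrays are therefore a description and carry no test.

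The arrays came from Sprague Dawley rats, an outbred strain, in 4 groups of 5: daughters and sons of fathers fed a high-fat diet (HFD), and daughters and sons of control-fed fathers. The fathers ate their diet for 12 weeks, the mothers ate chow, and the offspring themselves were weaned onto chow and killed unfasted at 4 to 5 weeks of age. The HFD was thus eaten by the father, never by the animal whose islets were measured. Each array stood for a litter per the design text, but 8 control and 9 HFD fathers served 10 arrays per diet, so some animals shared a father and the p-values treat them as independent. Values are log2 signals, in which a difference of 1 stands for a 2-fold signal on the array. Arrays have no read depth, so the number of arrays limits the precision.

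White fat stores energy as triglyceride in 1 large lipid droplet per cell, and brown fat burns fatty acids to make heat. Both express the nuclear receptor PPAR gamma, encoded by Pparg, which drives adipocyte differentiation, and both take up, esterify and store fatty acids with a shared set of proteins. Brown fat adds the mitochondrial uncoupling protein UCP1, which lets protons leak across the inner membrane so that respiration yields heat, and genes induced by noradrenaline such as Dio2. Pancreatic islets are isolated from the pancreas by enzymatic digestion, and the pancreas is surrounded by abdominal fat, lymph nodes and intestine.

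The sequences upstream of the 3 brown fat members are shown because these genes, which brown fat expresses together, had different patterns over the arrays. They are the 250 bases before the annotated start, 5′ to 3′ on the gene's strand, from RefSeq on the GRCr8 assembly. Capitals mark TATAAA, the letters of a TATA box. Ucp1 lies on chromosome 19 (minus strand; chr19:41721422-41721671 upstream), Dio2 on chromosome 6 (minus strand; chr6:115410595-115410844) and Elovl3 on chromosome 1 (plus strand; chr1:254938481-254938730).
Ucp1: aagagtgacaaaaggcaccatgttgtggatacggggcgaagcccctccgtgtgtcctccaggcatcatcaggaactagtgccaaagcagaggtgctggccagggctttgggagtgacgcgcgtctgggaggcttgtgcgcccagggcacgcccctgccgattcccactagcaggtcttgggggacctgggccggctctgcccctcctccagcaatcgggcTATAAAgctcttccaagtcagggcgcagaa
Dio2: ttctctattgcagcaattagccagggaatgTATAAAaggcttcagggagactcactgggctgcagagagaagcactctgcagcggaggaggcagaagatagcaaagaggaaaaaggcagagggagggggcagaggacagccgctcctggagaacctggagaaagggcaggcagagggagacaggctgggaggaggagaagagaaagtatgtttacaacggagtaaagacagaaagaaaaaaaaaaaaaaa
Elovl3: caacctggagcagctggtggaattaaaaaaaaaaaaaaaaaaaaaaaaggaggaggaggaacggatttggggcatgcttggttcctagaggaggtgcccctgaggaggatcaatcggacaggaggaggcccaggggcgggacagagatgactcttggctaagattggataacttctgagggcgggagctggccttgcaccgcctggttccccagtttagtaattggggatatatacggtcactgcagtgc
In Ucp1 the match began 30 bases before the start, and in Dio2 220 bases before it. Of the 33469 promoters in the table, 14.2% held TATAAA on either strand in a window of 300 bases (250 before the start to 50 after it). The table held a promoter for 7 of the 10 members, not for Gpd1, Lpl or Fabp4. No window of those 7 members held the nuclear receptor letters AGGTCA (16.2% of all promoters), the PPAR and RXR element, which repeats those letters after 1 base (0.0538%), or the cyclic AMP element TGACGTCA (1.83%). The C/EBP letters TTGCNNAA (10.6%) occurred 77 bases before the start of Plin1, 209 before that of Cidec and 174 before the second annotated start of Pparg. A match is no proof of a bound site, and a missing match concerns this window alone.

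Among the brown fat genes, Ucp1 was high in 3 arrays, all from females, while Dio2 and Elovl3 stayed low in every array. In females, Ucp1 read 8.12, 4.61, 4.80, 4.80 and 4.66 in the control-sired arrays 1 to 5 and 10.18, 4.91, 4.87, 6.35 and 4.60 in the HFD-sired arrays 1 to 5. In males it read 5.22, 4.81, 4.55, 5.07 and 4.94 in the control-sired and 4.68, 5.30, 4.71, 4.94 and 4.90 in the HFD-sired arrays. Female HFD-sired 1 stood highest, female control-sired 1 came next and then female HFD-sired 4, and the other 17 arrays, of all 4 groups, overlapped in a narrow band. That band ran from 4.55 to 5.30 with a median of 4.81 (SD 0.21, n = 17 arrays). The excess of an array, its value minus the median of the other 19, was 5.31 for Ucp1 in female HFD-sired 1, a 39.8-fold signal. It was 3.25 in female control-sired 1 (9.53-fold) and 1.48 in female HFD-sired 4 (2.80-fold).

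Dio2 encodes the deiodinase that makes active thyroid hormone inside brown fat cells. It read 4.55, 4.53, 4.58, 4.85 and 4.53 in control-sired females and 4.76, 4.62, 4.37, 5.04 and 4.64 in HFD-sired females. Among males the values were 4.24, 4.80, 4.07, 4.16 and 4.35 in the control-sired and 4.46, 4.63, 4.63, 4.77 and 4.36 in the HFD-sired arrays. All 4 groups overlapped, and the highest array was female HFD-sired 4, with an excess of 0.49. Female HFD-sired 1, the array with most Ucp1, had a Dio2 excess of 0.21, less than the SD of 0.22 among the 17 arrays with low Ucp1.

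Elovl3 encodes an elongase of very long chain fatty acids that brown fat induces in the cold. Its values were 4.26, 4.42, 4.58, 4.79 and 4.12 in control-sired and 4.27, 4.31, 4.31, 4.43 and 4.63 in HFD-sired females. In males they were 4.46, 4.67, 4.50, 4.65 and 4.29 in the control-sired and 4.10, 4.29, 4.48, 4.03 and 4.47 in the HFD-sired arrays. No array stood apart, and both arrays with most Ucp1 lay below the median of the others, by an Elovl3 excess of -0.17 in female HFD-sired 1 and -0.18 in female control-sired 1. The probe sets of 7 members, these 3 among them, had means over the 20 arrays under 6.35, the median of all probe set means. Whether the Dio2 and Elovl3 probe sets would respond to brown fat RNA was not tested here.

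Among the general adipocyte genes, female HFD-sired 1 was the highest array for all 7 members, and female control-sired 1 was second for all but Plin1. Adipoq, which encodes the fat cell hormone adiponectin, read 6.68, 5.26, 5.63, 5.24 and 5.21 in control-sired and 7.88, 5.23, 5.13, 5.58 and 5.64 in HFD-sired females. Among males the values were 5.74, 5.36, 5.08, 5.39 and 4.88 in the control-sired and 5.54, 5.10, 5.16, 5.25 and 5.18 in the HFD-sired arrays. Both number 1 female arrays lay above all others, and the remaining 18 arrays overlapped between 4.88 and 5.74. The Adipoq excess was 2.63 (6.18-fold) in female HFD-sired 1 and 1.43 (2.69-fold) in female control-sired 1.

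Plin1 and Cidec encode proteins of the lipid droplet, perilipin 1 on its surface and CIDEC at droplet contacts, where it helps droplets to grow. Plin1 read 6.39, 6.27, 6.19, 6.26 and 6.05 in control-sired and 7.56, 6.04, 6.09, 6.24 and 6.17 in HFD-sired females. Male arrays gave 6.85, 6.19, 6.08, 6.27 and 6.15 in the control-sired and 6.31, 6.24, 6.30, 6.18 and 6.25 in the HFD-sired arrays. Here the second highest array was male control-sired 1 and not female control-sired 1, whose Plin1 excess was 0.15. Cidec read 6.24, 5.75, 5.69, 5.75 and 5.64 in control-sired and 8.05, 5.51, 5.51, 5.67 and 5.93 in HFD-sired females. In males Cidec read 6.05, 5.60, 5.49, 5.57 and 5.58 in the control-sired and 5.59, 5.59, 5.38, 5.77 and 5.65 in the HFD-sired arrays. Female HFD-sired 1 was far above the rest for Cidec (excess 2.41, 5.31-fold), and female control-sired 1 and male control-sired 1 formed a second step, with excesses of 0.60 and 0.41. In male control-sired 1, 18.7% of all probe sets had an excess above 0.5.

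Gpd1 encodes the cytosolic glycerol 3-phosphate dehydrogenase, which makes the glycerol backbone of triglycerides. It read 7.96, 6.55, 6.41, 6.45 and 6.57 in control-sired and 10.28, 6.30, 6.51, 7.01 and 6.95 in HFD-sired females. Sons had 6.78, 6.30, 6.40, 6.52 and 6.45 in the control-sired and 6.77, 6.86, 6.50, 6.59 and 6.43 in the HFD-sired arrays. The excess of female HFD-sired 1, 3.77 (13.6-fold), was the second largest among the members after Ucp1, and that of female control-sired 1 was 1.45 (2.73-fold). Female HFD-sired 4 came next after these for Gpd1, as for Ucp1, with an excess of 0.49.

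Lpl, Fabp4 and Pparg varied among the other arrays too. Lpl encodes lipoprotein lipase, which frees fatty acids from circulating triglycerides and is also made in beta cells and macrophages. It read 9.25, 8.33, 8.30, 8.54 and 8.54 in control-sired and 9.90, 8.14, 8.50, 8.52 and 8.26 in HFD-sired females. In males Lpl read 8.14, 8.81, 9.02, 8.53 and 8.31 in the control-sired and 9.00, 8.70, 9.10, 9.03 and 8.75 in the HFD-sired arrays. Female HFD-sired 1 was highest, with an excess of 1.37 (2.58-fold), and female control-sired 1 came next, with 0.71, followed closely by several male arrays.

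Fabp4 encodes the fatty acid binding protein of adipocytes, which macrophages and capillary endothelium make as well. It read 9.43, 7.07, 7.49, 7.63 and 8.75 in control-sired and 10.93, 7.34, 7.63, 7.50 and 8.43 in HFD-sired females. Male arrays gave 7.15, 7.78, 8.33, 7.10 and 7.32 in the control-sired and 8.49, 7.29, 8.58, 6.44 and 7.78 in the HFD-sired arrays. Fabp4 had the widest spread of the members among the 17 arrays with low Ucp1 (SD 0.64, from 6.44 to 8.75). Female control-sired 5, next after both number 1 females, lay 1.12 above the median of the other arrays, and its Ucp1 was among the low values, and male HFD-sired 4 lay lowest, by -1.19.

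Pparg, the adipocyte regulator, read 6.48, 5.42, 5.78, 5.63 and 6.08 in control-sired and 7.53, 5.65, 5.62, 5.70 and 6.09 in HFD-sired females. In males it read 5.60, 5.58, 5.60, 5.65 and 5.64 in the control-sired and 5.62, 5.66, 6.03, 5.41 and 5.97 in the HFD-sired arrays. Both number 1 female arrays were highest again, with excesses of 1.88 (3.69-fold) and 0.83 (1.78-fold), while control-sired males stood close together at 5.62 ± 0.03 (SD, n = 5).

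**Figure D1:**
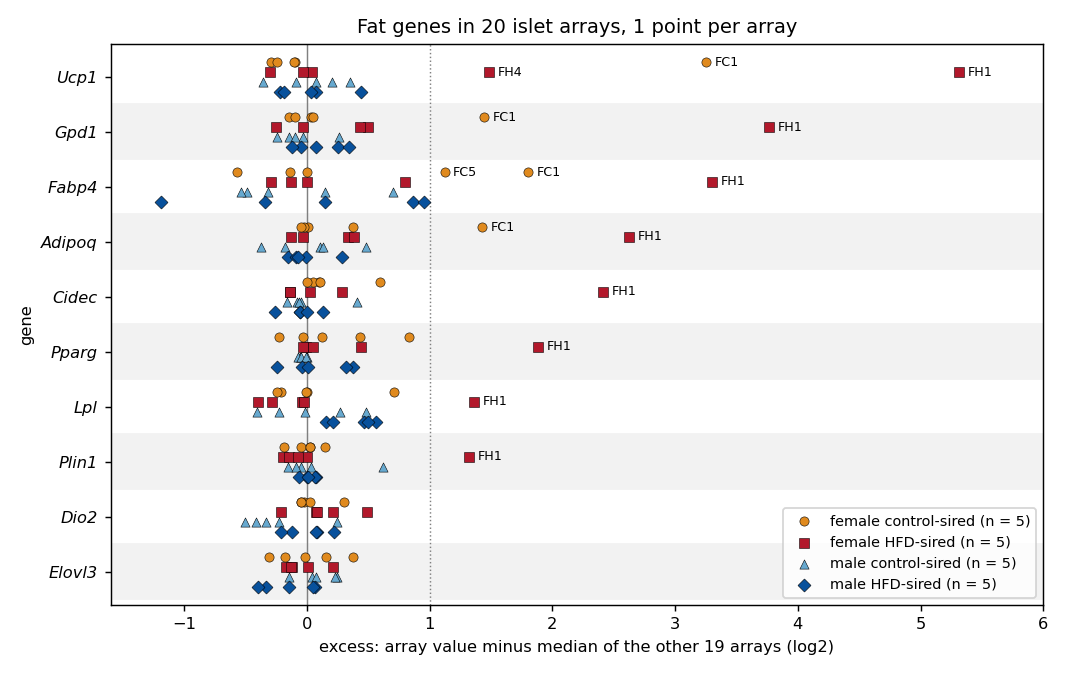
Excess of each fat gene in each of the 20 arrays, as log2 value minus the median of the other 19 arrays (x axis), by gene (y axis), with 1 point per array, coloured by group, and a dotted line at 1. Female HFD-sired 1 (FH1) lies past the line for 8 genes, female control-sired 1 (FC1) for 4, and female HFD-sired 4 (FH4) for Ucp1 alone.

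Counted together, 8 of the 10 members exceeded 1 in female HFD-sired 1, where 5.05% of all probe sets did. In female control-sired 1 the count was 4 of 10 (Ucp1, Fabp4, Gpd1 and Adipoq), against 2.02% of all probe sets. One member (Ucp1) did so in female HFD-sired 4, against 0.0753%, and 1 (Fabp4) in female control-sired 5, against 0.171%. No member exceeded 1 in the other 16 arrays, where 0.0685% to 1.41% of probe sets did, and 1 (Fabp4) lay below -1 in male HFD-sired 4, against 0.404% of probe sets. The median excess over the members was 2.15 in female HFD-sired 1 and 0.77 in female control-sired 1, beside medians over all probe sets of -0.06 and -0.05. These arrays were among those that led to the choice of the members, so nothing is read from the counts beyond the description. In tissue RNA, more fat cells and more RNA per fat cell cannot be told apart.

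The other fat cell genes of the lists were counted in the same way. Of 32 measured adipocyte genes of any depot, 20 exceeded 1 in female HFD-sired 1, where 5.05% of all probe sets did. Of these 20, 8 also exceeded 1 in female control-sired 1. Without the members, 13 of 25 exceeded 1 in the first array (median 1.16), and 5 of these 13 also in the second (median 0.28 over the 25). Over all probe sets, 1476 exceeded 1 in female HFD-sired 1 and 30.2% of them also in female control-sired 1, so the shared part of the list was near that of all probe sets. Largest in female HFD-sired 1 was the muscle and fat carbonic anhydrase gene Car3 (excess 4.19, and 2.12 in female control-sired 1). Next came Pck1, whose enzyme acts on the path from pyruvate to the glycerol precursor (4.08 and 1.52), and the glycerol channel gene Aqp7 (3.80 and 1.66). Thrsp, a regulator of fat synthesis, had 3.42 and 2.01, and it was the only gene of the list other than the members to exceed 1 in female HFD-sired 4 as well (1.04). Dgat2, which completes triglyceride synthesis, had 3.24 and 0.64. The lipases Lipe and Pnpla2 had 1.57 and 1.73 in female HFD-sired 1 and 0.67 and 0.32 in female control-sired 1.

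Other adipocyte genes had low or negative values. The lowest in female HFD-sired 1 was Pde3b, which encodes a phosphodiesterase also made in beta cells, with -1.07 there and -0.33 in female control-sired 1, and it was the only gene of the list below -1. Nnat, the neuronatin gene, had -0.75 and 0.22, and Mrap, an accessory protein of melanocortin receptors, -0.37 and -0.35. The leptin gene Lep had an excess of -0.46 in female HFD-sired 1 and -0.08 in female control-sired 1, the resistin gene Retn 0.03 and -0.07, and Adrb3, the adrenergic receptor of fat cells, 0.08 and -0.07. The insulin-responsive glucose transporter gene Slc2a4 had 0.22 and 0.04. Of 7 measured white fat genes, Lep and Retn included, none exceeded 1 in any of the 3 arrays with high Ucp1. Over all probe sets 5.05% did so in female HFD-sired 1, against 2.02% for female control-sired 1 and 0.0753% for female HFD-sired 4. At such shares a list of 7 genes can hold none above 1, so nothing is read from this count. The median excess of the 7 was 0.04 in female HFD-sired 1, with values from -1.08 (Agt) to 0.86 (Tcf21). The array with the next highest Ucp1 had -0.14 for Agt and 0.49 for Tcf21. The white fat genes were highest in male control-sired 1 (median 0.52), an array whose overall median of 6.49 was the highest of the 20, the lowest being 6.30.

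Of 20 measured brown fat genes, 6 exceeded 1 in female HFD-sired 1, and Ucp1 was the only one of these to do so in female control-sired 1. Without the members, 5 of 17 exceeded 1 in female HFD-sired 1, against 5.05% of all probe sets. None of the 17 did in female control-sired 1, against 2.02%, and their median there was 0.01. The 5 were Slc27a2, a fatty acid transporter and activating enzyme (2.52), the coactivator gene Ppargc1a (2.30), the muscle and brown fat carnitine palmitoyltransferase gene Cpt1b (1.88), the glycerol kinase gene Gk (1.85) and Ppara (1.52). In female control-sired 1 these genes had 0.01, -0.27, 0.34, 0.33 and 0.11. All 16 measured small intestine genes also exceeded 1 in female HFD-sired 1, and the part of intestine in the values of these 5 was not tested. The developmental brown fat gene Zic1 had -0.21 and -0.18, and the potassium channel gene Kcnk3 -0.30 and -0.25. Cidea, Cox7a1, Prdm16 and Acot11, which no probe set named alone, were not analysed here. Of the genes on both lists, those above 1 together with Ucp1 in female control-sired 1 were general adipocyte genes, and in female HFD-sired 4 Thrsp was the only one.

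**Figure D2:**
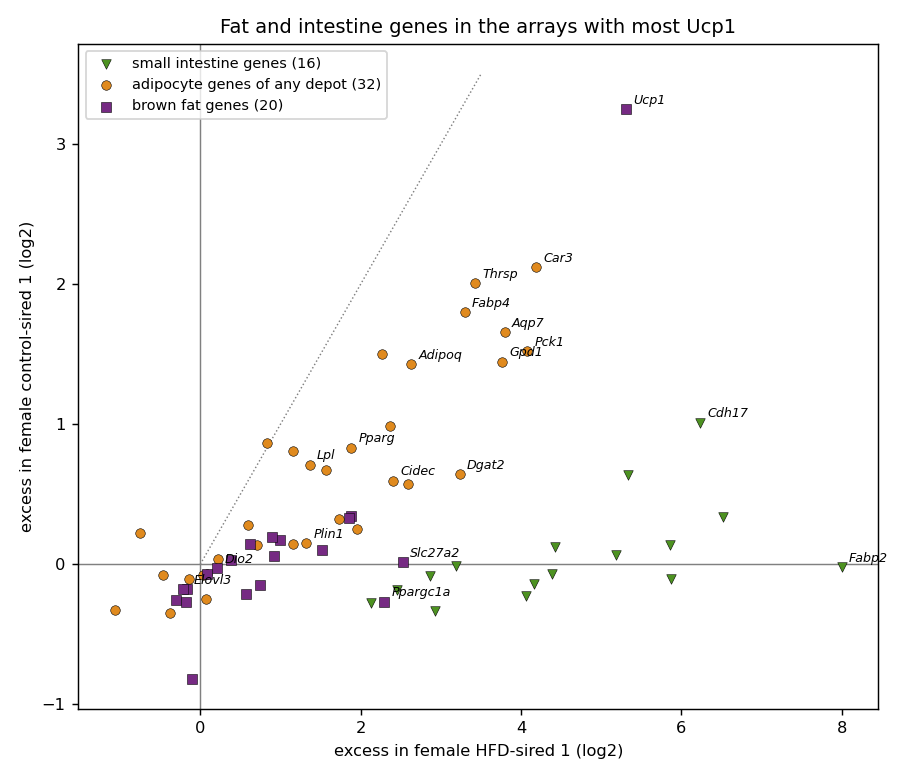
Excess of list genes (log2) in female HFD-sired 1 (x axis) and female control-sired 1 (y axis), 1 point per gene, for adipocyte genes of any depot (circles), brown fat genes (squares) and small intestine genes (triangles), with the dotted line marking equal excess. Ucp1 lies at 5.31 and 3.25, the other brown fat genes lie between -0.82 (P2rx5) and 0.34 (Cpt1b) on the y axis, and intestine genes such as Fabp2 lie far along the x axis (8.00) at about 0 on the y axis (-0.02).

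Macrophage, lymph node and stromal genes were also raised in both number 1 female arrays. The small intestine list was raised in female HFD-sired 1 and not in female control-sired 1. In female HFD-sired 1, 16 of 16 small intestine genes exceeded 1 (median 4.40), as did 11 of 13 macrophage genes (median 1.65), 8 of 12 lymph node genes (1.32) and 7 of 13 preadipocyte and stromal genes (1.06), while 13 beta cell genes had a median of -1.48. Of all probe sets, 5.05% exceeded 1 in that array. The intestinal fatty acid binding protein gene Fabp2 had an excess of 8.00 there. Some adipocyte genes that were high in this array, Pck1, Dgat2 and Cd36 among them, are known to be expressed in small intestine too. In female control-sired 1 the intestine genes had a median of -0.05, with 1 of 16 above 1 (Cdh17, 1.01) against 2.02% of all probe sets, while macrophage genes had 1.31, lymph node genes 1.25 and stromal genes 1.00. In male control-sired 1 the intestine genes had a median of 1.23, with 9 of 16 above 1, and Ucp1, Gpd1 and Fabp4 had 0.35, 0.26 and -0.49. Of all probe sets in that array, 1.23% lay above 1 and 2.21% below -1. In female HFD-sired 4 the medians were 0.06 for intestine, -0.19 for macrophage and -0.19 for lymph node genes.

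Over the groups, the mean level of the intestine list ran from 5.50 to 5.73 in control-sired females, 5.49 to 10.23 in HFD-sired females, 5.53 to 6.98 in control-sired males and 5.46 to 5.73 in HFD-sired males. That of the macrophage list ran from 6.23 to 7.73, 6.29 to 8.14, 6.22 to 7.45 and 6.10 to 7.41 in the same order, so raised macrophage genes occurred in all groups. Male HFD-sired 1 and male control-sired 3 had raised macrophage genes (medians 0.64 and 1.01) with no member above 1. The part of these tissues in the members' values was not tested.

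**Figure D3:**
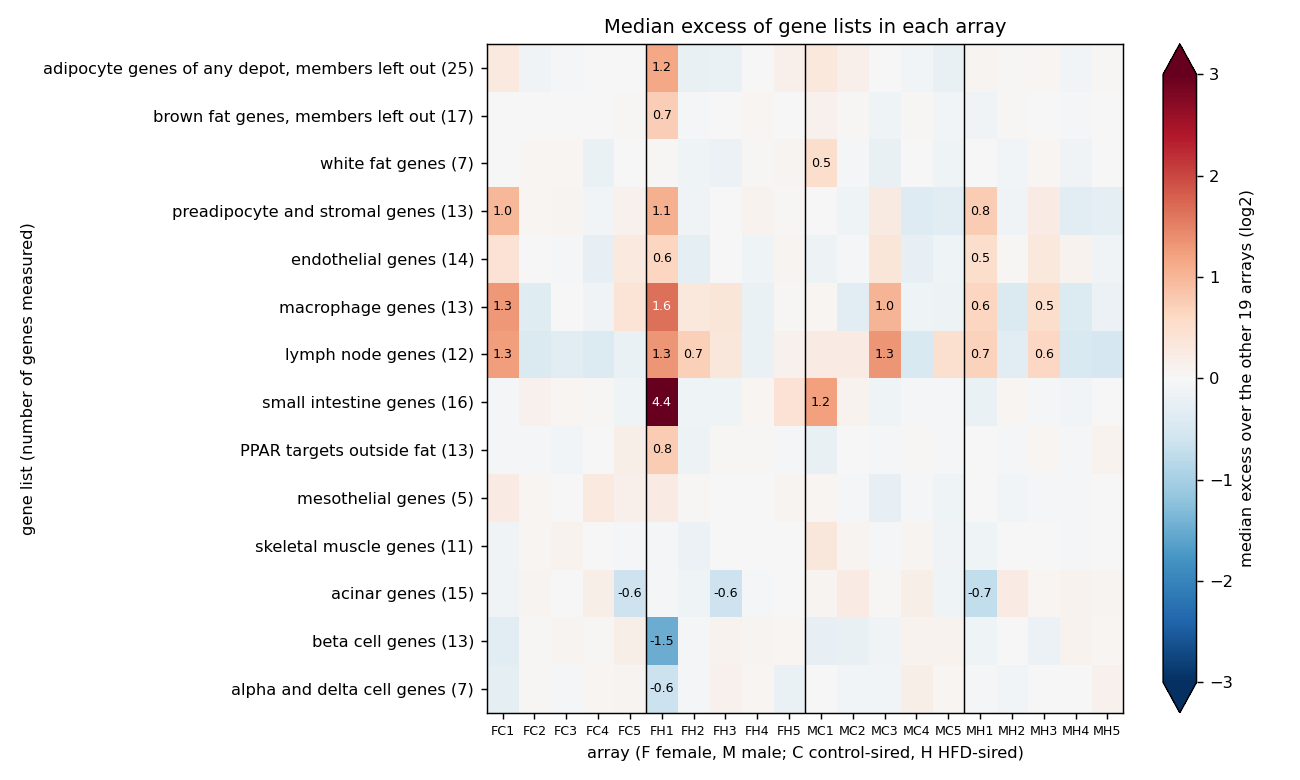
Median excess (log2, colour and printed where at least 0.5 in size) of each gene list (rows, with the number of genes measured) in each of the 20 arrays (columns, by group). The adipocyte list without the members is at 1.2 in female HFD-sired 1, where the intestine list is at 4.4, and macrophage and lymph node lists are raised in arrays of several groups.

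Whether the members varied together was described by their correlation with Adipoq over arrays, for 9 relations. Over all 20 arrays Pearson's r was 0.949 for Gpd1, 0.937 for Cidec, 0.931 for Ucp1, 0.873 for Pparg, 0.849 for Plin1, 0.767 for Fabp4 and 0.634 for Lpl, and 0.242 for Dio2 and -0.134 for Elovl3. Spearman's rho, which uses ranks, was lower: 0.762 for Cidec, 0.588 for Plin1, 0.558 for Gpd1 and 0.304 for Ucp1, and -0.0090 for Lpl. The first 7 relations had adjusted permutation p-values for r from 9e-05 to 0.0134, but both number 1 female arrays, which led to the choice of the members, set these values. Those were also the 2 arrays farthest from the Adipoq median. Without them (18 arrays), r was 0.64 for Cidec (rho 0.674), with an adjusted permutation p of 0.0341 for r and 0.0271 for rho over the 9 relations. Male control-sired 1 was the highest of these 18 for both Adipoq and Cidec, and the relations of the 18 were not computed without it. Plin1 had 0.529 (adjusted permutation p = 0.0787) and Gpd1 0.495 (0.109), while Ucp1 had 0.26 (0.487), Pparg 0.0899 (0.81), Fabp4 0.015 (0.952) and Lpl -0.295 (0.487). The relations of Ucp1, Pparg, Fabp4 and Lpl to Adipoq therefore rested on those 2 arrays.

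Relations were also computed within each sex. In the 10 females, which include both arrays and were not analysed without them, r to Adipoq was 0.951 for Cidec and 0.959 for Ucp1. In the 10 males, r was 0.774 for Plin1 (adjusted permutation p = 0.0508), 0.639 for Cidec (0.234) and 0.199 for Ucp1 (0.871), and no relation passed the threshold of 0.05. Both lipid droplet genes were highest among males in male control-sired 1, which also had the highest male Adipoq.

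**Figure D4:**
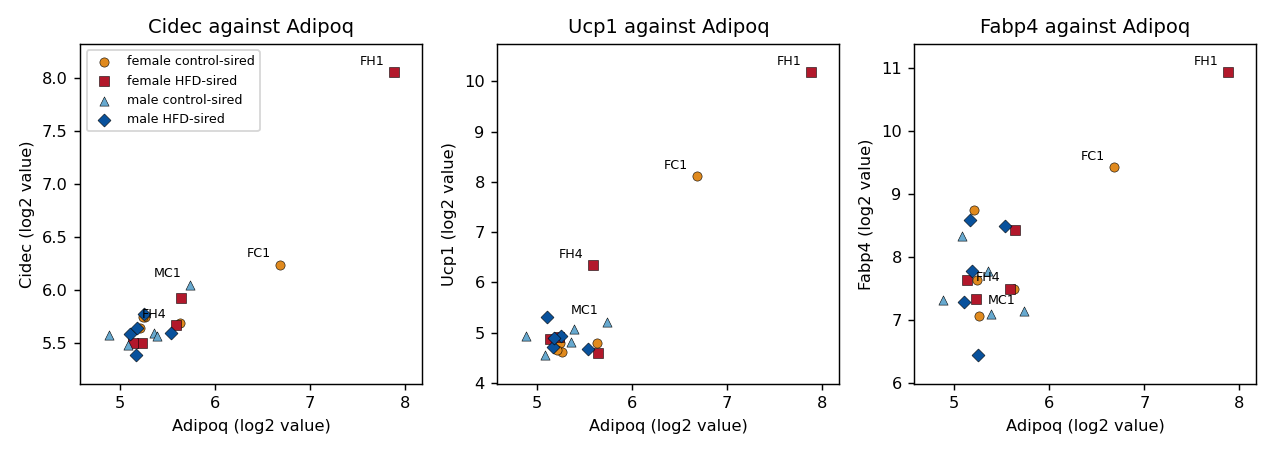
Log2 values of Cidec, Ucp1 and Fabp4 (y axes) against Adipoq (x axis), 1 point per array, coloured by group. Female HFD-sired 1 (FH1) and female control-sired 1 (FC1) lie apart at the upper right in all 3 panels, and among the other 18 arrays Cidec still rises with Adipoq (r = 0.64) while Ucp1 (0.26) and Fabp4 (0.015) scatter. Male control-sired 1 (MC1) is the highest of those 18 for both Adipoq and Cidec.

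Of the 14496 other genes with a single-symbol probe set, those with the highest rank correlation to Adipoq over the 20 arrays were Or1j13b (rho 0.832), Il17re (0.824), Crispld2 (0.802), Prss35 (0.798), Steap3 (0.794), Aldh1a2 (0.788), Vtcn1 (0.777) and Adgrg7 (0.761). The gene most like Ucp1 by rank was Or8b1c (0.746), followed by Slc6a14 (0.71), Kcnk4 (0.708), Defb23 (0.696), Slc7a6os (0.687), Or10a3 and Cabs1 (0.681 for both) and Or6c3b (0.678). A high rank correlation did not need a large difference: Or8b1c read 3.18 in female HFD-sired 1 against a median of 3.14 in 18 others. By Pearson's r, a measure added after the values had been seen, Thrsp was most like Ucp1 (0.976) and had 0.795 over the 18 arrays without the number 1 females. Those 18 still hold female HFD-sired 4, the third array with high Ucp1, and without it r was 0.529. Mme, which encodes the peptidase neprilysin, was most like Adipoq by that measure (0.957), and had 0.670 over the 18 arrays. It read 11.69 in female HFD-sired 1 and 7.23 in female control-sired 1, against a median of 4.85 in the 18 others. The part of other tissues in its values was not tested.

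For paternal diet, the question of the series, no member passed the test in any comparison. In females the mean Ucp1 level was 6.18 ± 2.34 (SD, n = 5) with HFD fathers and 5.40 ± 1.52 with control fathers, a difference of 0.78 ± 1.08 (SE; limma adjusted p = 0.995). For Gpd1 it was 0.62 ± 0.68, for Cidec 0.32 ± 0.43, for Fabp4 0.29 ± 0.69, for Adipoq 0.29 ± 0.50, for Pparg 0.24 ± 0.36 and for Plin1 0.19 ± 0.26. The other members differed by 0.08 ± 0.12 (Dio2), 0.07 ± 0.32 (Lpl) and -0.05 ± 0.13 (Elovl3), and the groups overlapped for all 10 genes. With limma 0 of 29214 probe sets (0%) passed at an adjusted p of 0.05 in females, and 797 (2.73%) had an unadjusted p under 0.05, with no member among them. Without female HFD-sired 1 the difference changed sign for 8 members, to -0.22 ± 0.70 for Ucp1, -0.10 ± 0.31 for Gpd1, -0.16 ± 0.13 for Cidec, -0.35 ± 0.45 for Fabp4, -0.21 ± 0.28 for Adipoq, -0.11 ± 0.20 for Pparg, -0.10 ± 0.08 for Plin1 and -0.24 ± 0.18 for Lpl (limma adjusted p = 0.999 for each). Female control-sired 1 stayed in that fit. A fit added after the data were seen left out both arrays. That fit gave 0.46 ± 0.32 for Ucp1, with female HFD-sired 4, the third array with high Ucp1 (6.35), kept in it. No fit left out all 3 arrays with high Ucp1. Gpd1 had 0.20 ± 0.15, Adipoq 0.06 ± 0.14 and Pparg 0.04 ± 0.15 without both number 1 females. Plin1 had -0.06 ± 0.07, Cidec -0.06 ± 0.10, Lpl -0.07 ± 0.10 and Fabp4 -0.01 ± 0.35 there.

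In males the members' differences were small, and Lpl had the largest. It averaged 8.92 ± 0.18 (SD, n = 5) with HFD and 8.56 ± 0.36 with control fathers, a difference of 0.35 ± 0.16 (SE). Its unadjusted p of 0.0495 became 0.838 after adjustment in limma, and the groups overlapped, with 1093 probe sets (3.74%) at that unadjusted threshold and 0 (0%) after adjustment. Dio2 was higher by 0.24 ± 0.14 and Elovl3 lower by -0.24 ± 0.12, Fabp4 had 0.18 ± 0.38, Gpd1 0.14 ± 0.12, Pparg 0.12 ± 0.12, and Ucp1 -0.01 ± 0.15. Adipoq (-0.04 ± 0.15), Plin1 (-0.05 ± 0.14) and Cidec (-0.06 ± 0.12) changed sign without male control-sired 1, to 0.07, 0.08 and 0.04.

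**Figure D5:**
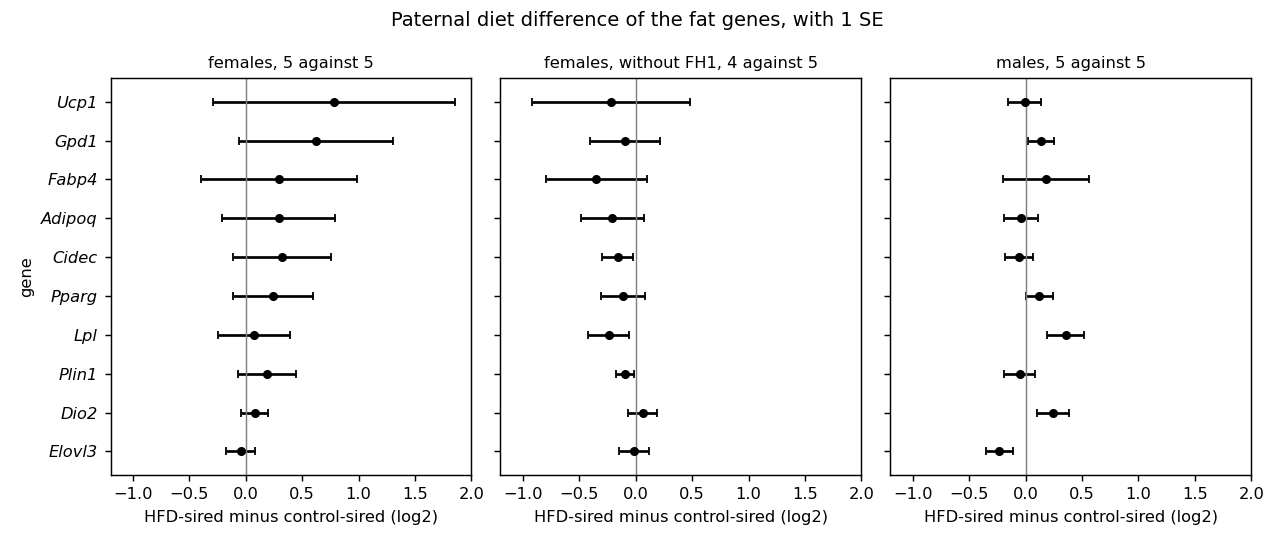
Difference by paternal diet (HFD-sired minus control-sired, log2, x axis) of each gene (y axis), with bars of 1 SE, in 5 against 5 females, in females without female HFD-sired 1, and in 5 against 5 males. Ucp1 stands at 0.78 in all females and at -0.22 without that array, and its bar is the widest in both panels. Female control-sired 1 is kept in both of these panels.

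Over both sexes the diet difference was 0.39 ± 0.57 for Ucp1, 0.38 ± 0.36 for Gpd1, 0.24 ± 0.42 for Fabp4, 0.21 ± 0.19 for Lpl and 0.16 ± 0.09 for Dio2 (limma adjusted p = 0.966, 0.962, 0.969, 0.962 and 0.962). Without female HFD-sired 1 these were -0.11 ± 0.36 for Ucp1, 0.02 ± 0.17 for Gpd1, -0.08 ± 0.32 for Fabp4, 0.06 ± 0.13 for Lpl and 0.15 ± 0.10 for Dio2. Without both number 1 females they were 0.23 ± 0.18, 0.17 ± 0.10, 0.09 ± 0.29, 0.14 ± 0.11 and 0.14 ± 0.10 in that order. Female HFD-sired 4, the third array with high Ucp1, was kept there. With all arrays 0 probe sets (0%) passed, with 1151 (3.94%) at an unadjusted p under 0.05. The diet difference of males minus that of females was -0.79 ± 1.14 for Ucp1 and 0.28 ± 0.37 for Lpl (limma adjusted p = 0.932 and 0.931), and 0 probe sets (0%) passed this interaction test, with 950 (3.25%) unadjusted. Without female HFD-sired 1 the Ucp1 interaction changed sign, to 0.21 ± 0.73, and the Lpl interaction was 0.59 ± 0.26, with an unadjusted p of 0.0315 and an adjusted p of 0.990 in limma. Without both number 1 females, and with female HFD-sired 4 kept, the interaction was -0.47 ± 0.36 for Ucp1 and 0.43 ± 0.21 for Lpl. Of the wider lists, 0 of 32 adipocyte genes and 0 of 20 brown fat genes passed in females, where their median differences were 0.15 and 0.12, beside -0.02 over all probe sets. With the members left out the medians were 0.065 for adipocyte and 0.14 for brown fat genes. That fit kept female HFD-sired 1, where the full lists had a median excess of 1.47 and 0.68. Medians of the lists were not computed without that array, so no list-wide diet difference is read from them.

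Between the sexes, males minus females over both diets, the difference was -0.87 ± 0.57 for Ucp1, -0.59 ± 0.42 for Fabp4, -0.54 ± 0.36 for Gpd1, -0.48 ± 0.27 for Adipoq, -0.35 ± 0.23 for Cidec and -0.32 ± 0.19 for Pparg. None passed (limma adjusted p = 0.884 for Adipoq and 0.893 for the other 5), and 3 probe sets of 29214 did (0.0103%). All 3 arrays with high Ucp1 were females, but without female HFD-sired 1 the sex difference was -0.37 ± 0.36 for Ucp1, -0.27 ± 0.32 for Fabp4, -0.18 ± 0.17 for Gpd1, -0.23 ± 0.16 for Adipoq, -0.11 ± 0.09 for Cidec and -0.14 ± 0.12 for Pparg. Without both number 1 females it was -0.03 ± 0.18 for Ucp1, while Lpl, at 0.11 ± 0.19 with all arrays, had 0.35 ± 0.11 (limma adjusted p = 0.462). With all arrays Dio2, at -0.20 ± 0.09, was the only member with an unadjusted p under 0.05 (0.0479; limma adjusted p = 0.884), a threshold that 1606 probe sets (5.5%) met.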

How the data were processed

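Islet RNA of 20 rats was hybridised to 1 Affymetrix Rat Gene ST array each. Per the design text deposited with the series, the authors normalised the values with the robust multi-array average (RMA) (background correction, equalised arrays, probes summarised into sets), and the deposited table holds log2 values. The submitters' processing notes name MAS5, another method, and this conflict was not resolved. Folds are those of the array signal as deposited. Values ran from 1.18 to 14.17 and array medians from 6.30 to 6.49.

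The labels' sex and diet gave the groups. Replicate numbers follow accession order and only name arrays. The platform annotation named the probe sets, and those with several symbols were left out. Gene positions and promoters are RefSeq's on GRCr8.

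Excess was computed per array against the median of the other 19, with a threshold of 1. Diet, sex and interaction were tested on all 29214 probe sets as deposited, without a filter, with limma 3.58.1 in R 4.3.3 (lmFit, eBayes, Benjamini-Hochberg, two-sided, threshold 0.05). Fits over both sexes used 4 group means and fits within a sex its 10 arrays. The fit was tested on simulated data. Relations used 100000 two-sided permutations drawn with NumPy 2.4.6, with ranks from SciPy 1.17.1.

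The 10 members and the 14 gene lists (220 genes, 187 measured) were chosen with earlier results of these data known. The text names all members, of each other list up to 6 genes with the largest and 4 with the smallest excess in an array with Adipoq or Ucp1 above 1, and the 8 genes most like Adipoq and Ucp1. Genes outside this rule (Dgat2, Lipe, Pnpla2, Slc2a4 and Mme) were chosen after their values were seen. Alternatives were median centring, quantile normalisation, a filter on dim probe sets, least squares without moderation, array weights, other excess thresholds and references, and leaving out arrays.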

Additional observations from a re-analysis of the deposited data

Results flagged for a closer look

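In 14 cases the highest array of a group of 5 lay far from its nearest neighbour, with a gap of over 0.71 of the group's range, in 40 groups tested (10 genes in 4 groups). The genes were chosen with high values in single arrays already known, so this count is a description and is not set against the 1 in 20 groups that chance flags. Female HFD-sired 1 stood apart for Adipoq (7.88, next 5.64), Plin1 (7.56, next 6.24), Cidec (8.05, next 5.93), Gpd1 (10.28, next 7.01), Lpl (9.90, next 8.52) and Pparg (7.53, next 6.09). Female control-sired 1 stood apart for Ucp1 (8.12, next 4.80), Gpd1 (7.96, next 6.57), Adipoq (6.68, next 5.63), Lpl (9.25, next 8.54) and Cidec (6.24, next 5.75). Ucp1 in HFD-sired females was not in this count, since 2 of the 5 arrays were high. Male control-sired 1 stood apart for Plin1 (6.85, next 6.27) and Cidec (6.05, next 5.60), in an array where 18.7% of all probe sets had an excess above 0.5. Female control-sired 4 stood apart for Dio2 (4.85, next 4.58).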

How the results depend on the processing

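In every diet and interaction fit over all arrays, 0 probe sets passed under median centring, quantile normalisation, the dim filter, least squares and array weights, and no member was called in any fit run. Leaving out 1 array gave 0 to 1 calls in males and 3 to 5 between the sexes, where array weights gave 5, as did leaving out female HFD-sired 1 and female control-sired 1 (added after the data were seen). The dim filter removed 7 members, so it gave no value for them. Each member had 1 probe set, so averaging probe sets changed nothing. No paired analysis was possible because the labels give no replicate numbers shared between groups. With a threshold of 0.5, 7 members exceeded it in female control-sired 1, against 5.54% of all probe sets, and 9 arrays had a member above it. In those arrays the share of all probe sets above 0.5 ran from 0.948% (female HFD-sired 4) to 18.7% (male control-sired 1). Male control-sired 1 had 1 of 10 members above it. With the mean of the other arrays as reference and the threshold of 1, no member (0) exceeded it in female control-sired 5.

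Relations to Adipoq fell without both arrays to r = 0.529 (Plin1), 0.495 (Gpd1), 0.015 (Fabp4), 0.0899 (Pparg) and 0.26 (Ucp1), and changed sign for Lpl (-0.295) and Elovl3 (0.247). Without female HFD-sired 1 alone they were 0.468 (Plin1), 0.213 (Lpl) and 0.458 (Fabp4).

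No member difference was called under any of these settings. The cause of each sign change was not tested. With array weights the values that changed sign were -0.00658 for Plin1 and -0.00742 for Cidec over both sexes, -0.053 for Plin1, -0.015 for Cidec and -0.091 for Lpl in females and 0.00202 for Adipoq, 0.041 for Plin1, 0.00912 for Cidec and 0.013 for Ucp1 in males. The interaction gave 0.095 for Plin1, 0.029 for Cidec, 0.21 for Fabp4 and 0.057 for Pparg, and the sex difference 0.047 for Plin1. Without the 2 arrays with most Ucp1 they were -0.056 for Plin1 and -0.057 for Cidec over both sexes and -0.059 for Plin1, -0.055 for Cidec, -0.074 for Lpl and -0.00998 for Fabp4 in females. The interaction then gave 0.00494 for Plin1, 0.19 for Fabp4 and 0.085 for Pparg, and the sex difference 0.12 for Plin1. In males, median centring gave 0.00172 for Adipoq and 0.033 for Ucp1, and quantile normalisation 0.027 for Adipoq, 0.00539 for Cidec and 0.066 for Ucp1.

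Leaving out each array in turn, the ranges that crossed 0 over both sexes were -0.12 to 0.26 (Adipoq), -0.076 to 0.14 (Plin1), -0.11 to 0.21 (Cidec), -0.083 to 0.41 (Fabp4) and -0.11 to 0.73 (Ucp1). In females they were -0.21 to 0.56 (Adipoq), -0.097 to 0.28 (Plin1), -0.16 to 0.48 (Cidec), -0.095 to 0.92 (Gpd1), -0.24 to 0.24 (Lpl), -0.35 to 0.63 (Fabp4), -0.11 to 0.39 (Pparg), -0.22 to 1.46 (Ucp1), -0.00961 to 0.16 (Dio2) and -0.12 to 0.045 (Elovl3). In males they were -0.14 to 0.071 (Adipoq), -0.11 to 0.083 (Plin1), -0.10 to 0.040 (Cidec), -0.033 to 0.50 (Fabp4) and -0.11 to 0.066 (Ucp1). For the interaction they were -0.60 to 0.17 (Adipoq), -0.34 to 0.044 (Plin1), -0.53 to 0.10 (Cidec), -0.78 to 0.23 (Gpd1), -0.45 to 0.53 (Fabp4), -0.27 to 0.24 (Pparg) and -1.47 to 0.21 (Ucp1), and between the sexes -0.11 to 0.10 (Plin1) and -0.057 to 0.027 (Elovl3).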

Other observations

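Some genes that PPAR receptors control outside fat as well, many of them of fatty acid oxidation, were high in female HFD-sired 1. In the same array all 16 small intestine genes exceeded 1 (median 4.40) and beta cell genes had a median of -1.48. The part of other tissues in these values was not tested. Of 13 measured, 5 exceeded 1 in that array (median 0.75), where 5.05% of all probe sets did: the acyl-CoA dehydrogenases Acadl (2.27) and Acadm (2.03), Ehhadh (1.95) and Acaa2 (1.74), enzymes of beta oxidation, and the lipid droplet gene Plin2 (1.30). The lipoprotein receptor gene Vldlr lay below -1 there (-1.14), and the other 7 genes ran from 0.24 to 0.88. In female control-sired 1 the median was -0.05 and 0 of the 5 exceeded 1, with Acadl at 0.61 and Ehhadh at -0.21. Car3 was also high in arrays without any excess of Ucp1, by 1.65 in female HFD-sired 5 and 2.10 in male HFD-sired 1, where Ucp1 had -0.30 and -0.22.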
